A study of Mus musculus with 6 samples.

Results

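The conjugation enzymes described here are the UDP-glucuronosyltransferases, the glutathione S-transferases and the sulfotransferases of the mouse, measured as RNA in isolated glomeruli, the filtering units of the kidney. The rule that chose them reads gene symbols and no measured value, but it was proposed with earlier results of these data known. It takes every Ugt1a, Ugt2, Ugt3, Gst, Mgst or Sult gene of the deposited count table that is not marked as a pseudogene. This gave 67 of the 55401 genes in the table. They comprised 9 Ugt1a genes, 12 Ugt2 and Ugt3 genes, 22 cytosolic or mitochondrial glutathione S-transferases, 3 microsomal glutathione S-transferases and 21 sulfotransferases. The groups were glomeruli labelled Control and glomeruli labelled DKD, which the series title spells out as diabetic kidney disease, with 3 libraries each. The labels give this name under genotype for both groups and do not state a strain, an allele, an agent that induced the disease, an age or whether animals were pooled, so how far the DKD group models diabetes cannot be read from them. The series set out to profile histone methyltransferases in these mice, and the conjugation genes come from the same libraries.

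Conjugation is the stage of drug and metabolite handling in which a polar group is joined to a compound so that it can be excreted. UDP-glucuronosyltransferases sit in the endoplasmic reticulum and add glucuronic acid from UDP-glucuronic acid. Glutathione S-transferases add the tripeptide glutathione to electrophiles, and several also reduce peroxides. Sulfotransferases of the cytosol add a sulfonate group from the activated sulfate donor PAPS. In the kidney these enzymes are best known from the proximal tubule, which receives the glomerular filtrate, and there the conjugates are also exported into urine.

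The libraries held 71154026 to 83576494 counts each. Levels are given in CPM, library counts put on a common scale with TMM factors, as mean ± SD over 3 libraries. Log2 fold changes are DKD over Control with their standard error (SE), and adjusted p-values come from edgeR's quasi-likelihood test over all 19717 genes tested. The samples are not said to come from separate animals, and the tests therefore measure only how these libraries vary, which may be technical. Within groups the log CPM correlations across genes were 0.980 for Control replicates 1 and 2, 0.956 and 0.954 for Control replicate 3 with each of these, and between 0.963 and 0.970 in DKD. The podocyte marker Nphs1 of the glomerulus had Control and DKD means of 49.0 ± 7.20 and 31.4 ± 8.67 CPM (log2 fold change −0.64 ± 0.21, adjusted p 0.137). The RNA also held tubule transcripts. The 30 listed proximal tubule markers summed to 33120 to 62683 CPM in Control, highest in replicate 3, and to 32149 to 40135 CPM in DKD. Single genes weighed on these sums. Kap alone spanned 7800 to 21114 CPM over the Control libraries, and the group mean of Pck1 was 1301 CPM for Control but 6020 CPM for DKD. None of the 30 was at 0 in all libraries, 25 were lower in DKD and 5 higher. By edgeR 5 of the 30 were called (16.7%), all lower, against 1.16% of all genes, 0.431% lower. By DESeq2 15 were called, 12 lower and 3 higher, against 13.7% of all genes it gave an adjusted p. The 15 podocyte markers summed to 594 to 854 CPM in Control and 470 to 622 CPM in DKD, with 13 of 15 lower, and 10 of 10 endothelial markers were lower; edgeR and limma-voom called 0 in either list, with 8 and 4 at an unadjusted edgeR p under 0.05, and DESeq2 called 6 and 3. In such bulk samples fewer cells of a type and less RNA per cell cannot be told apart, which holds for every gene below, and the part of cell type content in the conjugation results was not tested.

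Of the 67 conjugation genes 47 passed the filter on low counts, 11 of the other 20 were at 0 in every library, and 3 changed between the groups. All 3 rose in DKD. They were Ugt1a1, which encodes the bilirubin-conjugating enzyme, Ugt1a10, which shares its locus, and Mgst3, a membrane-bound glutathione transferase and peroxidase. They made up 6.38% of the 47, against 1.16% of all genes tested (228 of 19717), 0.725% higher and 0.431% lower. Outside the Ugt1a locus, whose genes share exons, 1 of 40 was called (2.5%). Of the 47 genes 31 had a higher and 16 a lower value in DKD, with a median log2 fold change of 0.47, against 0.0029 for all genes. Among the 47 the groups stood apart for 17 (36.2%), 12 with DKD above Control and 5 below, against 30.7% of all genes, 15.5% above and 15.2% below. An unadjusted p under 0.05 was found for 17 (36.2%), against 22.6% of all genes. The filter kept 41 of the 47 with all 6 libraries at its minimum or above, and the other 6 (Ugt1a2, Ugt1a9, Ugt2b35, Gstp3, Mgst2 and Sult6b1) had fewer than 3 Control libraries there, so that some of them entered the test through their DKD values. When only library totals were used for scaling, the all-gene median moved to −0.13 and the 3 genes called were Ugt1a1, higher, and Gstk1 and Gstz1, lower. With DESeq2 13 of the 47 passed, 8 higher and 5 lower, where that tool called 13.7% of all genes it gave an adjusted p (2483 of 18167). Leaving out Control replicate 1 or 2 or DKD replicate 1 or 3 left 0 conjugation genes past the edgeR threshold, with 17, 15, 13 and 13 at an unadjusted p under 0.05. Those fits called 1, 13, 4 and 10 of all genes in the same order, against 228 with all 6 libraries. A call lost in them is therefore not particular to the conjugation genes.

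**Figure D1:**
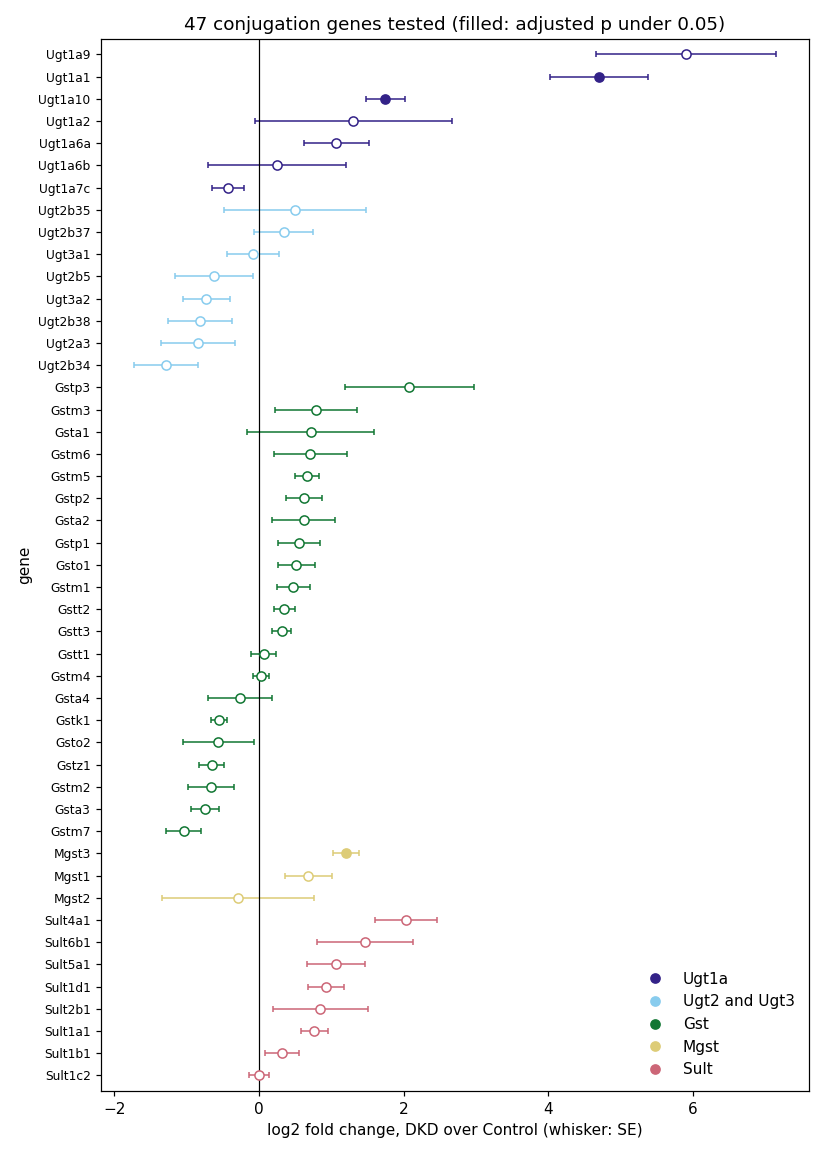
Log2 fold change of each of the 47 conjugation genes tested, DKD over Control, by family, with whiskers for the SE. Filled circles are the 3 genes past the threshold, Ugt1a1, Ugt1a10 and Mgst3, all to the right of 0; most open circles of the Ugt2 and Ugt3 family lie to the left.

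The most abundant transcripts, compared per kilobase of exonic length, were those of Gstm1, Ugt3a2 and Ugt2b38. Exonic length here covers every annotated exon of a gene, 4.22 kilobases for Ugt1a7c and 1.47 for Gstm1, so the order depends on the gene models. In Control Gstm1, a mu-class glutathione transferase, stood at 387 ± 86.6 CPM per kilobase, Ugt3a2 at 385 ± 144 and Ugt2b38 at 329 ± 227, and these 3 levels did not differ beyond their spread. Next in the Control order came Gsta2 at 188 ± 85.5, Ugt1a7c at 179.5 ± 42.2 and Sult1d1 at 157 ± 37.5 CPM per kilobase, which overlapped as well. In DKD Gstm1 was at 537 ± 104, Sult1d1 at 299 ± 78.2, Gsta2 at 288 ± 118 and Ugt3a2 at 232 ± 64.8 CPM per kilobase. The summed level of all 67 genes overlapped between the groups, with 5120, 5438 and 6967 CPM in the Control libraries and 6162, 5534 and 6568 CPM in the DKD libraries.

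The Ugt1a locus is built as a row of alternative first exons, each with its own promoter, spliced to a common set of downstream exons that encode the part binding the sugar donor. The first exon sets which compounds an enzyme accepts. The sequences that differ between these genes upstream of their starts are shown because 2 genes of the locus, Ugt1a1 and Ugt1a10, were called higher while Ugt1a7c, the most abundant, was not. Each is the 250 bases before the RefSeq transcription start on GRCm38.p6, plus strand, 5′ to 3′. Ugt1a1 covers chr1:88211709-88211958, Ugt1a9 chr1:88070529-88070778, Ugt1a10 chr1:88055161-88055410 and Ugt1a7c chr1:88094751-88095000. Capitals mark matches to GTTAAT on either strand, a half-site of the HNF1 factors of kidney and liver.
Ugt1a1: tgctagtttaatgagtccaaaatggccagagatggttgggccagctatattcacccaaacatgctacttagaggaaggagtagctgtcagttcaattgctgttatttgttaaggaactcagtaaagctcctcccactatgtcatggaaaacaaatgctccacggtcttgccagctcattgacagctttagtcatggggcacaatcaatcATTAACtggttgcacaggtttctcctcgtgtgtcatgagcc
Ugt1a9: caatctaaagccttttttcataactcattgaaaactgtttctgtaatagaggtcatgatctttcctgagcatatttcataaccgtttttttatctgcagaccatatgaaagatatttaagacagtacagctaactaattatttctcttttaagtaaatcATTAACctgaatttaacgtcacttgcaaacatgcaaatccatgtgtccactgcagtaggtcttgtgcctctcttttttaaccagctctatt
Ugt1a10: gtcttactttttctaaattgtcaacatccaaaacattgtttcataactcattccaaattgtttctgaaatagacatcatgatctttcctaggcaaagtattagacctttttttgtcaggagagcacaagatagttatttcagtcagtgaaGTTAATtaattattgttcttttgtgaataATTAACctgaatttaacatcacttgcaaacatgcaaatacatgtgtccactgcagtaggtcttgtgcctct
Ugt1a7c: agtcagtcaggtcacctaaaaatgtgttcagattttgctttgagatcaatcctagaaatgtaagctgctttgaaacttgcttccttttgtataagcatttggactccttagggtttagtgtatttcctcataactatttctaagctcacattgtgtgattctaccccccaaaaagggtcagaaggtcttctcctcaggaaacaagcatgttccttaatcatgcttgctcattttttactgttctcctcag
The match lay 36 to 41 bases before the start in Ugt1a1 (minus strand) and 86 to 91 bases before it in Ugt1a9 (minus strand). Ugt1a10 held 2 matches, 95 to 100 bases (plus strand) and 66 to 71 bases (minus strand) before its start. Ugt1a6a, whose groups overlapped and which was not called, held a match as well. Both strands were searched for 4 patterns. These were the HNF1 half-site, the antioxidant response element core TGACNNNGC, the xenobiotic response element core GCGTG and the TATA box, spelled TATAAA. None of the 4 was found in the Ugt1a7c window, and no printed match overlapped another. GTTAAT occurred in 6.43% of all 32851 RefSeq promoter windows of this length and in 14 of the 71 windows (19.7%) of 59 conjugation genes, the other 8 genes having no entry matched by symbol. TGACNNNGC occurred in 10.2% of all windows and in 4 of the 71, GCGTG in 28.2% and 12, and TATAAA in 12.4% and 14. The Ugt1a9 and Ugt1a10 windows were 69.2% identical in alignment, whereas the other pairs of Ugt1a windows ran from 47.5% to 53.5%. These matches describe the letters only, and binding was not measured.

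Ugt1a1 (ENSMUSG00000089960) rose from a low level in Control. It was measured at 2.39, 4.86 and 0.885 CPM in the Control libraries and at 95.6, 33.8 and 82.7 CPM in the DKD libraries. All 3 DKD libraries lay above all 3 Control libraries, DKD replicate 2 being the lowest of its group. The means were 2.71 ± 2.00 and 70.7 ± 32.6 CPM (SD, n = 3 each), a log2 fold change of 4.70 ± 0.68 (SE) with an adjusted p of 0.0345. Ugt1a10 (ENSMUSG00000090165), which conjugates phenols, was already present in Control. Its 3 Control libraries stood at 52.8, 52.8 and 26.7 CPM and its DKD libraries at 128, 162 and 154 CPM. The groups were apart, with means of 44.1 ± 15.1 and 148 ± 17.6 CPM, at 1.75 ± 0.27 on the log2 scale (adjusted p 0.0396). The Ugt1a1 call was lost without Control replicate 1 (adjusted p 0.141), Control replicate 2 (0.0699), DKD replicate 1 (0.120) or DKD replicate 3 (0.106). The Ugt1a10 call was lost without those libraries too (adjusted p 0.131, 0.116, 0.122 and 0.124 in that order) and without DKD replicate 2 (0.0604). Without those libraries few genes of any kind were called (1, 13, 4 and 10, in that order), while 298 were called without DKD replicate 2.

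Ugt1a9 (ENSMUSG00000090175), another phenol-conjugating enzyme, did not pass although its groups lay far apart. It was listed at 0.419, 3.27 and 0 CPM in Control and at 103, 38.3 and 81.7 CPM in DKD, a log2 difference of 5.91 ± 1.24 (adjusted p 0.0635). Its DKD libraries kept the order of those of Ugt1a1, with replicate 1 highest and replicate 2 lowest. Without Control replicate 3, the library at 0, its adjusted p was 0.0447. In the next 3 genes of the locus the groups overlapped. Ugt1a2 (ENSMUSG00000090171) stood at 67.9, 21.6 and 0.0925 CPM in Control and at 106, 29.1 and 85.6 CPM in DKD. The overlap came from Control replicate 1, and the log2 fold change was 1.30 ± 1.36 with an adjusted p of 0.616. Ugt1a6a (ENSMUSG00000054545), an enzyme for planar phenols, was measured at 94.6, 35.8 and 43.8 CPM in Control and at 169, 64.7 and 131 CPM in DKD (log2 fold change 1.07 ± 0.45, adjusted p 0.220). Its close copy Ugt1a6b (ENSMUSG00000090145) was measured at 18.0, 10.6 and 33.5 CPM in Control and at 1.40, 33.7 and 38.5 CPM in DKD (0.25 ± 0.95, adjusted p 0.904). The sign of Ugt1a6b turned with limma-voom (−0.53), and DKD replicate 1 lay far below the other 2 of its group.

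Ugt1a7c (ENSMUSG00000090124) held most of the counts of the locus. It was measured at 604, 715 and 953 CPM in Control and at 459, 624 and 602 CPM in DKD. The groups overlapped only between Control replicate 1 and DKD replicate 2, and the log2 fold change was −0.43 ± 0.22 with an adjusted p of 0.291. Ugt1a5 was at 0 in Control and at 0, 0.0970 and 0.126 CPM in DKD, and Ugt1a8 was at 0 throughout, where 3 counts would be 0.0359 to 0.0448 CPM. The locus as a whole overlapped between the groups. Its summed level was 840.2, 844 and 1058 CPM in Control and 1062, 985 and 1175 CPM in DKD (914 ± 124 and 1074 ± 95.4), and as 1 summed feature it had a log2 fold change of 0.23 ± 0.17 with an adjusted p of 0.466, in a fit that called 1.11% of all genes.

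**Figure D2:**
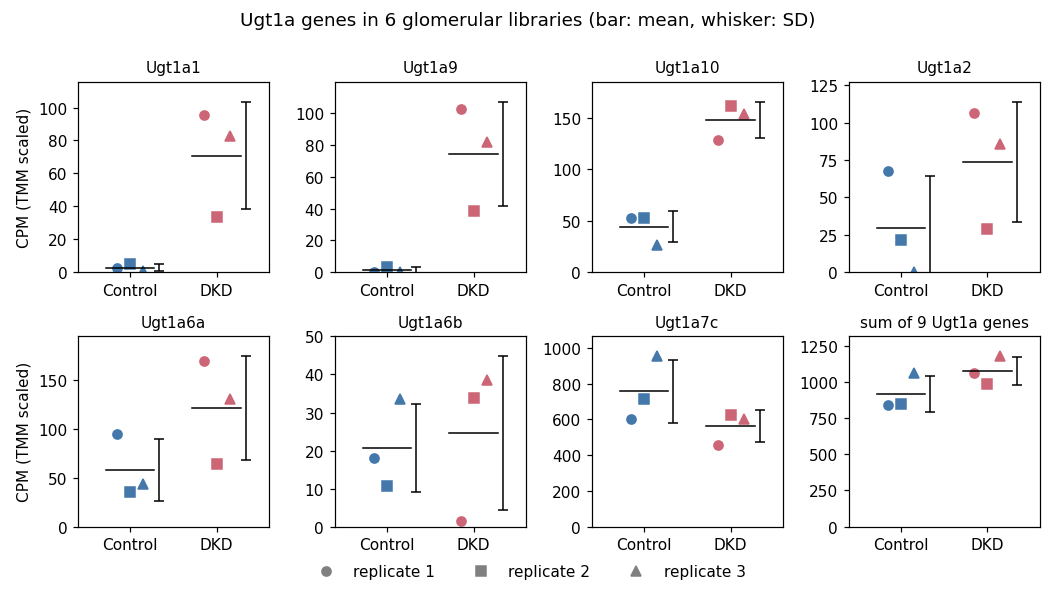
CPM of 7 Ugt1a genes and of the sum of all 9 in each library, with symbols for the replicate number, a bar for the mean and a whisker for the SD. Ugt1a1, Ugt1a9 and Ugt1a10 are higher in all 3 DKD libraries, Ugt1a7c is lower on average, and the sums overlap; whiskers that would pass below 0 end at the axis.

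The division of these counts among the genes differed more than their total. Ugt1a7c took 71.9%, 84.7% and 90.1% of the Ugt1a counts in the Control libraries and 43.2%, 63.3% and 51.2% in the DKD libraries, with no overlap (82.2% ± 9.34 and 52.6% ± 10.1). Ugt1a10 took 5.02% ± 2.16 in Control and 13.9% ± 2.27 in DKD. Ugt1a1 and Ugt1a9 took 0.314% ± 0.247 and 0.146% ± 0.211 in Control and 6.49% ± 2.82 and 6.83% ± 2.88 in DKD. The Ugt1a genes without Ugt1a7c, a sum chosen after its values were seen, stood at 236, 129 and 105 CPM in Control and at 603, 361 and 573 CPM in DKD. These shares rest on how the authors' counting split reads of the common exons. In the GRCm38 gene models, exons of the rest of the locus overlap 58.9% of Ugt1a1, 58.1% of Ugt1a10, 59.9% of Ugt1a9 and 54.6% of Ugt1a7c. The antisense gene Gm20528 covers 41.5% of the Ugt1a1 bases and was at 0 in all libraries, and whether the counting used the strand is not given in the sources used here.

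**Figure D3:**
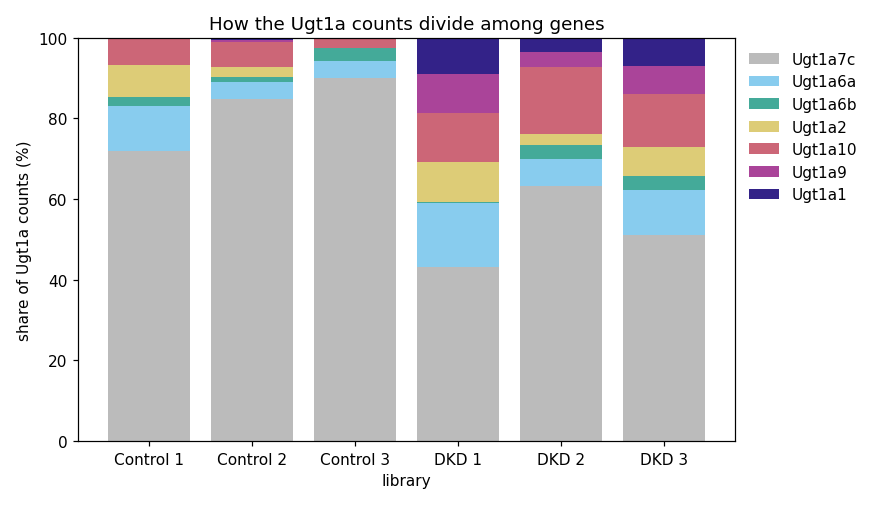
Share of the Ugt1a counts, in percent, held by each of 7 Ugt1a genes in each of the 6 libraries. Ugt1a7c (grey) holds 71.9% to 90.1% in Control and 43.2% to 63.3% in DKD, and the Ugt1a10, Ugt1a9 and Ugt1a1 segments are taller in DKD.

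The Ugt2 and Ugt3 genes showed no call. Ugt2 enzymes conjugate steroids and fatty acids among others, and Ugt3 enzymes use other UDP sugars as donors. Of 12 genes 8 were tested, 2 higher and 6 lower in DKD, with a median log2 fold change of −0.68. edgeR called 0, 1 had an unadjusted p under 0.05, limma-voom called 0 and DESeq2 1 (Ugt2b34). Ugt2b34 (ENSMUSG00000029260) was the 1 gene of this family whose groups were apart. It stood at 23.3, 15.6 and 19.0 CPM in Control and at 7.22, 3.34 and 13.1 CPM in DKD, all of these below Control (log2 fold change −1.29 ± 0.45, adjusted p 0.153). The abundant members turned on Control replicate 3, the library with the highest sum of proximal tubule markers. Not every such marker was highest there, and Slc13a1 and Cyp4a10 had their lowest Control values in it (437 and 252 CPM). The part of tubule content in these values was not tested. Ugt3a2 (ENSMUSG00000049152) was measured at 865, 1011 and 1703 CPM in Control and at 731, 916 and 514 CPM in DKD (−0.73 ± 0.32, adjusted p 0.232). Ugt2b38 (ENSMUSG00000061906) was measured at 335, 416 and 1116 CPM in Control and at 393, 363 and 303 CPM in DKD (−0.82 ± 0.44, adjusted p 0.315). Ugt3a1 (ENSMUSG00000072664) was measured at 156, 189.7 and 298 CPM in Control and at 201, 289 and 116 CPM in DKD (−0.09 ± 0.36, adjusted p 0.911). In each of these 3 genes Control replicate 3 was the highest of all 6 libraries. Without it the log2 fold changes were −0.38, −0.09 and 0.22 in the same order, and the family median was −0.046. The summed level of the family was 1449, 1733 and 3382 CPM in Control and 1481, 1756 and 1069 CPM in DKD, with 0.656 as the ratio of the means and 0.902 without Control replicate 3. Ugt2a3 was low, at 0.550, 1.05 and 1.84 CPM in Control and 0.777, 0.443 and 0.687 CPM in DKD (−0.85 ± 0.51, adjusted p 0.374). Among the rest, Ugt2b5 had −0.63 ± 0.54, Ugt2b37 0.34 ± 0.41 and Ugt2b35 0.49 ± 0.98, none past the threshold. Reads of Ugt2b38 and Ugt2b5 may be hard to tell apart, since 52.9% and 56.4% of their 31-base words also occur elsewhere in the transcriptome.

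The cytosolic and mitochondrial glutathione S-transferases pointed both ways and none passed. Of 21 tested, 14 were higher and 7 lower in DKD, with a median of 0.35. edgeR called 0 with 7 at an unadjusted p under 0.05, limma-voom called 0, and DESeq2 called 5, of which Gsta3, Gstk1, Gstm7 and Gstz1 were lower and Gstm5 higher. With library totals as scaling the split was 12 higher and 9 lower. The groups were apart for 7 of the 21 (33.3%), 3 above and 4 below, a share near the 30.7% of all genes.

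Those with DKD below Control included enzymes of organelle and amino acid metabolism. Gstk1 (ENSMUSG00000029864), the kappa-class enzyme of mitochondria and peroxisomes, was measured at 56.2, 60.2 and 65.8 CPM in Control and at 45.3, 39.0 and 39.9 CPM in DKD. The narrow groups did not touch, and the log2 fold change was −0.55 ± 0.11 with an adjusted p of 0.0600. Gstz1 (ENSMUSG00000021033), which isomerises maleylacetoacetate in tyrosine breakdown, stood at 303, 291 and 398 CPM in Control and at 238, 210.0 and 180.4 CPM in DKD (−0.66 ± 0.18, adjusted p 0.0975). Both passed with library totals as scaling, at −0.68 and −0.77. Gsta3 (ENSMUSG00000025934), an alpha-class enzyme, stood at 139, 149.9 and 101 CPM in Control and at 75.1, 64.8 and 92.2 CPM in DKD (−0.75 ± 0.19, adjusted p 0.0928). Gstm7 (ENSMUSG00000004035), of the mu class, stood at 13.3, 15.7 and 8.75 CPM in Control and at 6.50, 6.64 and 5.14 CPM in DKD (−1.04 ± 0.25, adjusted p 0.0775). In both genes the nearest values of the groups were Control replicate 3 and a DKD library. Without Control replicate 3 Gstm7 passed the threshold at −1.25, as did Gstm2, another mu-class gene, which was measured at 70.7, 75.0 and 29.8 CPM in Control and at 38.9, 38.8 and 33.4 CPM in DKD.

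Gstm5 (ENSMUSG00000004032), a mu-class enzyme of brain and testis, had nearly equal values in the Control libraries. Its Control libraries stood at 93.7, 90.6 and 91.3 CPM and its DKD libraries at 155, 112 and 168 CPM, with no overlap (0.66 ± 0.16, adjusted p 0.0853). Without DKD replicate 2, the lowest of its group, it passed at 0.80. Gstt2 and Gstt3, of the theta class, were also apart, at 143 ± 22.1 and 183 ± 6.22 CPM for Gstt2 (0.35 ± 0.14) and 70.7 ± 6.35 and 87.6 ± 12.3 CPM for Gstt3 (0.31 ± 0.14). Gstm1 (ENSMUSG00000058135), the most abundant, overlapped, at 601, 680.0 and 430.4 CPM in Control and 798, 634 and 939 CPM in DKD (0.47 ± 0.23, adjusted p 0.273). Gsta2 (ENSMUSG00000057933) overlapped as well, at 304, 249.6 and 109 CPM in Control and 359.6, 191 and 466 CPM in DKD (0.62 ± 0.43, adjusted p 0.446). In Gstm1 and Gsta2 alike, Control replicate 3 was the lowest Control library, DKD replicate 2 the lowest and DKD replicate 3 the highest of DKD. The pi-class genes, whose protein conjugates many drugs, were measured at 160.3 ± 12.3 and 235 ± 96.6 CPM for Gstp1 (0.55 ± 0.29) and at 26.0 ± 2.93 and 39.9 ± 13.7 CPM for Gstp2 (0.62 ± 0.25). Gstt1 and Gstm4 were level, at 129 ± 7.39 and 134 ± 27.9 CPM for Gstt1 (0.06 ± 0.17) and 15.2 ± 0.295 and 15.4 ± 1.01 CPM for Gstm4 (0.03 ± 0.12). Of their 31-base words Gsta1 shared 92.9%, Gsta2 60.7% and Gstp2 60.3% with other genes, so the values of these near copies are uncertain.

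The microsomal enzymes gave the third gene past the threshold. They are membrane proteins of another fold than the cytosolic transferases. Mgst3 (ENSMUSG00000026688), which reduces lipid hydroperoxides with glutathione, was measured at 71.8, 62.8 and 60.5 CPM in Control and at 150.2, 114 and 183 CPM in DKD. No DKD library came down to the Control range. Mgst3 rose from 65.0 ± 5.99 to 149 ± 34.6 CPM (SD, n = 3 each), a log2 fold change of 1.20 ± 0.19 (SE) with an adjusted p of 0.0396. The 250 bases before its RefSeq start, chr1:167393842-167394091 on the minus strand of GRCm38.p6, are shown because this gene changed outside any shared locus, with the xenobiotic response element core GCGTG in capitals.
Mgst3: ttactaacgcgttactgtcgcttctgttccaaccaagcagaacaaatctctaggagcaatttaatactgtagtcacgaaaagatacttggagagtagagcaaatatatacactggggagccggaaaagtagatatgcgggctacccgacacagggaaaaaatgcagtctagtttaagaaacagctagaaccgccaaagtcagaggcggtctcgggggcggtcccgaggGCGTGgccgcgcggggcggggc
That match lay 18 to 22 bases before the start on the strand of the gene, and the antioxidant response element core was not found in the window. Only 1.31% of the 31-base words of Mgst3 occur in transcripts of other genes. The Mgst3 call was lost without Control replicate 1 (adjusted p 0.134), 2 (0.135) or 3 (0.0509) and without DKD replicate 1 (0.142) or 3 (0.102), and with a trend on transcript length removed (0.0557). Of all genes these fits called 1, 13, 386, 4, 10 and 184, in that order. Mgst1 (ENSMUSG00000008540), the abundant transferase of liver microsomes, was measured at 98.1, 106 and 54.6 CPM in Control and at 131, 92.1 and 192 CPM in DKD (0.68 ± 0.33, adjusted p 0.270). Its groups overlapped through DKD replicate 2. Mgst2 was near its floor, at 0.275, 0.852 and 0.106 CPM in Control and 0.0448, 0.222 and 0.743 CPM in DKD (−0.29 ± 1.05), and its sign turned without Control replicate 2 (0.81) or DKD replicate 1 (0.23). The summed level of the 3 genes was 170, 170 and 115 CPM in Control and 281, 207 and 376 CPM in DKD, apart, of which Mgst1 and Mgst3 held nearly all.

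The sulfotransferases were led by 1 gene. Of 21 genes 8 were tested and 9 were at 0 in every library, among them 6 of the 8 Sult2a genes, whose enzymes act on bile acids and hydroxysteroids in liver. Of the 8 tested, 7 had a higher value in DKD, with a median of 0.88. edgeR called 0 with 4 at an unadjusted p under 0.05, limma-voom called 0 and DESeq2 called 3 (Sult1a1, Sult1d1 and Sult4a1), all higher. The groups were apart for 5 of the 8 (62.5%), all with DKD above, against 30.7% of all genes, 15.5% above. Of these 5, Sult6b1 entered the test through its DKD values, with 1 Control but 3 DKD libraries at the filter's minimum or above.

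Sult1d1 (ENSMUSG00000029273), a rodent enzyme that acts on catecholamines, held most of the sulfotransferase counts. It was measured at 319.7, 349 and 492 CPM in Control and at 716, 553 and 936 CPM in DKD. The groups did not overlap, with means of 387 ± 92.2 and 735 ± 192 CPM (0.93 ± 0.25, adjusted p 0.0999), and 0 of its 31-base words occur in transcripts of other genes. Sult1a1 (ENSMUSG00000030711), the phenol sulfotransferase, stood at 19.1, 13.5 and 16.0 CPM in Control and at 23.3, 25.3 and 33.6 CPM in DKD (0.76 ± 0.19, adjusted p 0.0843). Sult4a1 (ENSMUSG00000018865), known from brain, was low but apart, at 0.239, 0.334 and 0.291 CPM in Control and 0.732, 1.37 and 1.43 CPM in DKD (2.03 ± 0.43, adjusted p 0.0636). Sult5a1 was likewise apart, at 0.825, 1.37 and 0.885 CPM in Control and 1.58, 1.70 and 3.15 CPM in DKD (1.06 ± 0.40, adjusted p 0.176). In these 4 genes every DKD library exceeded every Control library. Sult6b1 was apart below 1 CPM (0.0859 ± 0.0460 and 0.240 ± 0.0809), with 1 Control library at the filter's minimum of 0.135 CPM. Sult1c2 (ENSMUSG00000023122) was level, at 68.9, 73.9 and 81.0 CPM in Control and 79.9, 82.0 and 61.6 CPM in DKD (adjusted p 0.994). Sult1b1, an enzyme for thyroid hormones, and Sult2b1, which acts on cholesterol, overlapped (0.32 ± 0.24 and 0.84 ± 0.66). The summed level of the sulfotransferases was 414, 443 and 595 CPM in Control and 827, 672 and 1042 CPM in DKD, apart, with 1.75 as the ratio of the means.

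**Figure D4:**
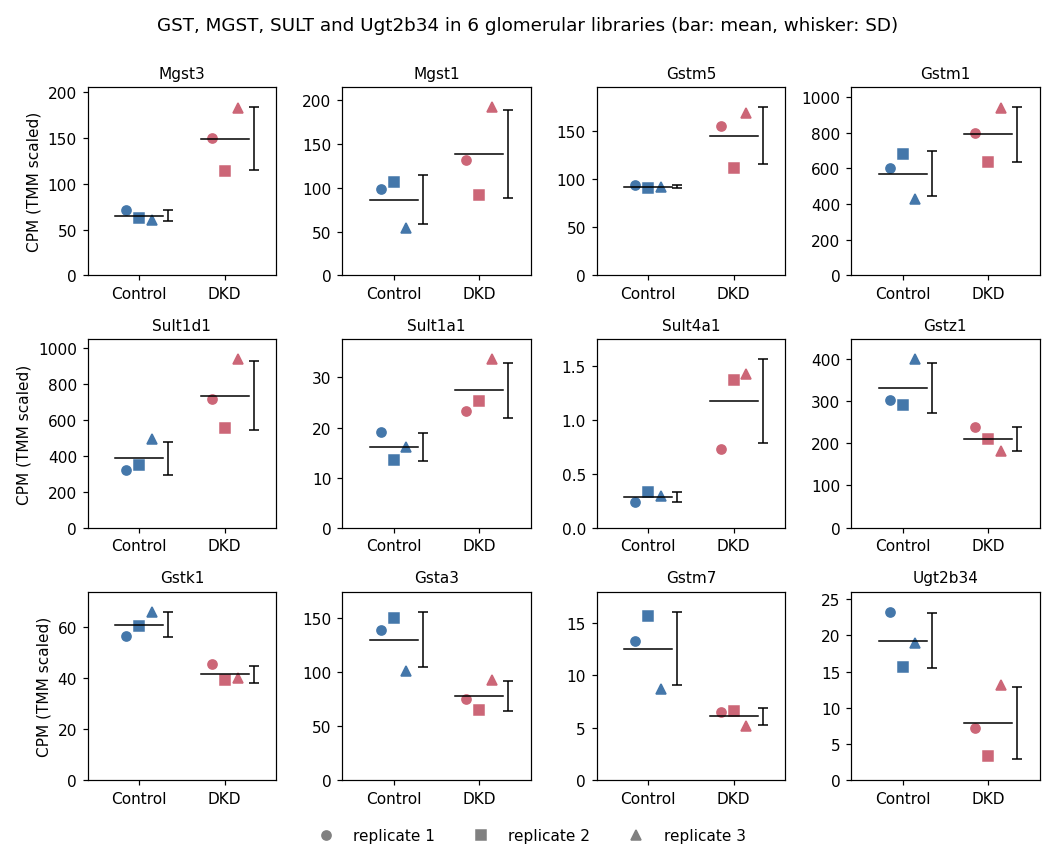
CPM of 12 conjugation genes outside the Ugt1a locus in each library, with symbols for the replicate number, a bar for the mean and a whisker for the SD; each panel has its own axis from 0. Mgst3, the 1 gene of these past the threshold, Gstm5, Sult1d1, Sult1a1 and Sult4a1 are higher in all 3 DKD libraries, and Gstz1, Gstk1, Gsta3, Gstm7 and Ugt2b34 are lower in all 3.

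Genes that supply, regulate or follow conjugation were read from a list of 99, of which 97 were found, 95 were tested and 2 changed (2.11%, against the 1.16% of all genes). Gclc, the catalytic subunit of the enzyme that limits glutathione synthesis, rose in DKD. It stood at 230.0, 285 and 241 CPM in Control and at 621, 493 and 632 CPM in DKD, with no overlap (252 ± 29.3 and 582 ± 77.6 CPM, log2 fold change 1.21 ± 0.17, adjusted p 0.0322). Nr3c1, the glucocorticoid receptor, fell in DKD. It stood at 80.2, 79.0 and 90.7 CPM in Control and at 44.9, 51.9 and 44.2 CPM in DKD (−0.83 ± 0.12, adjusted p 0.0328). Both calls were lost without Control replicate 1 (adjusted p 0.137 and 0.131), Control replicate 2 (0.107 and 0.116), DKD replicate 1 (0.130 and 0.142) or DKD replicate 3 (0.106 and 0.118), and with a trend on transcript length removed (0.0531 and 0.0793). Of all genes these fits called 1, 13, 4, 10 and 184, in that order.

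By edgeR each list around the enzymes held 0 or 1 call. Of all genes edgeR called 1.16% and DESeq2 13.7%, and 22.6% had an unadjusted edgeR p under 0.05. The counts per list stand beside these shares. Of 16 genes of glutathione synthesis and recycling 9 were higher and 7 lower (median 0.20), with Gclc the 1 called by edgeR and by limma-voom, while DESeq2 called 3 (2 higher, 1 lower) and 4 had an unadjusted p under 0.05. Dpep1, a dipeptidase of glutathione breakdown, was at −0.79 ± 0.17 (adjusted p 0.0631). Ggt1, the transpeptidase that starts that breakdown and the most abundant of the list, was at 1042 ± 397 and 689.7 ± 82.6 CPM (−0.60 ± 0.28). Of 23 peroxidases and targets of the factor NRF2, 19 were higher and 4 lower (median 0.40). edgeR called 0 of them with 8 at an unadjusted p under 0.05, all higher, limma-voom 0 and DESeq2 5. Their groups were apart for 6 (26.1%, against 30.7% of all genes), all with DKD above. Among these 23 the phospholipid hydroperoxidase Gpx4 was at 0.55 ± 0.15 (adjusted p 0.0995) and the haem oxygenase Hmox1 at 1.07 ± 0.31 (adjusted p 0.110). Gpx3, the plasma glutathione peroxidase made by the tubule, was the most abundant, at 17672 ± 1351 and 23369 ± 5651 CPM, and overlapped (0.40 ± 0.32). The genes that supply the donors showed 0 calls by edgeR or limma-voom. Of 6 genes of UDP-glucuronic acid supply 3 were higher (median 0.045), with 0 at an unadjusted p under 0.05 and 0 called by DESeq2. Ugp2, which makes UDP-glucose, was at 0.13 ± 0.17 and the nucleotide sugar transporters Slc35b4 and Slc35d2 at 0.26 ± 0.13 and 0.24 ± 0.13. Of 7 genes of sulfate donor supply 6 were lower (median −0.12), with 3 at an unadjusted p under 0.05 and 2 called by DESeq2. The sulfate transporter Slc26a1 was at −1.31 ± 0.35 (adjusted p 0.0972), the sulfate transporter Slc26a2 at −0.56 ± 0.14 (adjusted p 0.0912) and Papss2, which makes PAPS, at −0.10 ± 0.23.

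Of 16 receptors and factors known to regulate conjugation genes, 7 were higher and 9 lower (median −0.13). Nr3c1 was the 1 called by edgeR and by limma-voom, while DESeq2 called 7 (3 higher, 4 lower) and 8 had an unadjusted p under 0.05. Ppara, the fatty acid receptor, was at −1.18 ± 0.21 (adjusted p 0.0527) and Hnf4a, a factor of liver and tubule, at −0.59 ± 0.21 (adjusted p 0.155). Of 12 genes of conjugate efflux and uptake 10 were lower (median −0.52), 0 called by edgeR or limma-voom, 6 by DESeq2 and 6 at an unadjusted p under 0.05 (50%, against 22.6% of all genes), all lower. Slc22a8, an organic anion transporter of the proximal tubule, stood at 680.0, 699 and 746 CPM in Control and at 395, 209 and 259 CPM in DKD (−1.30 ± 0.24, adjusted p 0.0565), and Abcc6, an ATP-binding cassette transporter, was at −1.51 ± 0.29 (adjusted p 0.0573). Slc22a6, the most abundant of the list, was at −0.30 ± 0.37, and without Control replicate 3 at 0.25. Of 15 other conjugating enzymes 10 were lower (median −0.27), 0 called by edgeR or limma-voom, 3 by DESeq2 and 3 at an unadjusted p under 0.05 (20%, near the 22.6% of all genes). Inmt, an amine methyltransferase among them, stood at 399, 506 and 1324 CPM in Control and 240.1, 265 and 147 CPM in DKD (−1.77 ± 0.48, adjusted p 0.0972). Ugt8a, which makes galactosylceramide, was at −0.92 ± 0.30 (adjusted p 0.139) and Acsm2, an acyl-CoA synthetase, at −0.98 ± 0.45 (adjusted p 0.246).

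**Figure D5:**
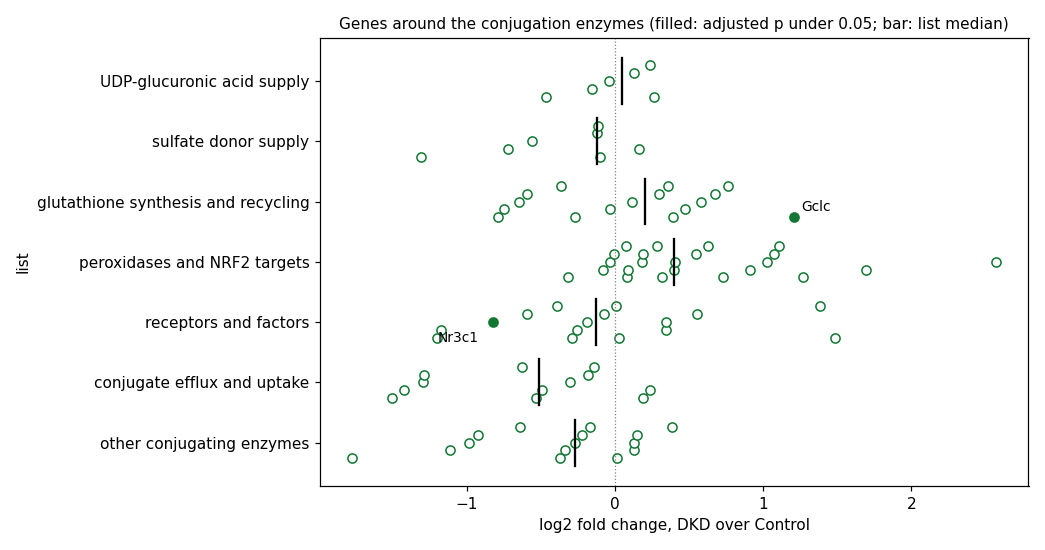
Log2 fold change, DKD over Control, of the 95 listed genes around conjugation that were tested, by list, with a bar for each list's median. Filled circles are the 2 past the threshold, Gclc to the right of 0 and Nr3c1 to the left; the peroxidase and NRF2 list has 19 of 23 circles to the right and the efflux and uptake list 10 of 12 to the left.

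Markers of other cells that can express conjugation genes differed unevenly. The 10 hepatocyte markers summed to 117 to 144 CPM in Control and 320 to 497 CPM in DKD. Of the 8 tested 7 were higher, and Cyp3a11 was lower (log2 fold change −1.44 ± 1.09). By edgeR 1 of the 8 was called (Apoa2, 12.5%), against 1.16% of all genes. By DESeq2 4 were called, all higher, against 13.7% of all genes it gave an adjusted p. Ttr was at 57.7, 69.7 and 104 CPM in Control and at 323, 221 and 164 CPM in DKD. Fgg was at 19.8, 17.7 and 5.58 CPM in Control and at 55.6, 35.3 and 274 CPM in DKD. These 2 genes held the larger part of the sum in every library, and neither was called by edgeR. Apoa1 and Fgb had log2 fold changes of 2.10 ± 0.65 and 2.45 ± 1.01, not past the threshold. Alb was at 8.36 to 8.50 CPM in Control and 7.49 to 10.6 CPM in DKD, and Cps1 was at 0.0957 to 0.222 CPM in Control and at 0 in all 3 DKD libraries. The 8 urothelial markers summed to 53.0, 103 and 0.529 CPM in Control and to 17.5, 22.1 and 71.3 CPM in DKD. Control replicate 3, the lowest of these, was also the lowest Control library for Ugt1a1, Ugt1a2, Ugt1a9, Ugt1a10, Gsta1, Gsta2, Mgst1 and Mgst3. This was not particular to these genes or to urothelium. That library was also the lowest of Control for Gsta3, Gstm1 and Gstp1, among others, but the highest for Ugt1a7c and Ugt3a2. The podocyte, endothelial, mesangial and leukocyte marker sums were lowest of Control there too. Within DKD the order depended on the gene. DKD replicate 1, the lowest for the urothelial markers, was the highest for Ugt1a1, Ugt1a2 and Ugt1a9, and DKD replicate 2 for Ugt1a10. DKD replicate 3, the highest for the urothelial markers, was also the highest for Gsta1, Gsta2, Mgst1 and Mgst3. The part of these cells in the values of the conjugation genes was not tested.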

How the data were processed

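Polyadenylated RNA of 3 Control and 3 DKD glomerular samples was sequenced from dUTP libraries in paired reads of 150 bases, per the labels' protocols. Reads were handled with fastp, HISAT2 and StringTie on GRCm39, per the submitters' processing notes, which also list edgeR but give no versions. The deposited values are unnormalized counts for each Ensembl identifier. Small values favoured 4, seen 6267 times (3 was seen 3129 times, 5 1993 times), and the numbers deposited may be estimates rounded to whole reads. Symbols, lengths and shared sequence came from GRCm38 gene models (55141 matched; 260 unmatched, 0.00805% of counts).

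Genes were kept by filterByExpr (minimum count 10), scaled by TMM and tested with edgeR 4.0.16 in R 4.3.3 (quasi-likelihood, group only), with Benjamini-Hochberg adjusted p under 0.05 over all genes. The biological coefficient of variation was 33.2%. On simulated counts with 3 libraries per group, the test recovered 26 of 100 genes at a log2 fold of 1 and 77 of 100 at 2 among 19103, with 6 false calls of 109. The changed genes were drawn only from those with higher counts, so these rates do not cover members at low counts. Standard errors are not given by this test. Each was derived as the absolute log2 fold change divided by the square root of the test's F statistic. They cover the spread between libraries.

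Members, lists and promoter patterns were chosen with earlier results of these data known. Named by rule were all called members, all Ugt1a genes, per family the 4 smallest p and 3 highest levels, and per partner list the called genes, the 2 smallest p and the highest level; others are given by count or briefly. Alternatives used DESeq2 1.42.0, limma 3.58.1 (voom), RLE, upper quartile or total scaling, other filters, robust dispersion, a replicate block, a length trend, summed Ugt1a genes and each library left out. Dividing counts by 4 was chosen after seeing the data.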

Additional observations from a re-analysis of the deposited data

How the results depend on the processing

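The count of all genes past the threshold was 228, and 516 with a filter of at least 1 CPM in 3 libraries, 56 with no filter, 2483 with DESeq2 and 522 with counts divided by 4. For the conjugation genes the count of 3 became 0 with no filter (16 at an unadjusted p under 0.05), 13 with DESeq2, 1 with the Ugt1a genes summed (Mgst3) and 5 with counts divided by 4 (Gstk1 and Ugt1a9 added). It was 3 with the same genes under RLE and upper quartile factors, limma-voom and robust dispersion. Leaving out 1 library gave 1 to 386 genes and 0 to 5 conjugation genes. With the replicate number as a block the counts were 0 and 0 (3322 and 14 at an unadjusted p under 0.05). Deviations of same-numbered libraries from their group means correlated at −0.18, 0.066 and −0.22. Deviations within a group of 3 are tied to each other, so these values cannot tell whether same-numbered samples were paired.

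Over 18 alternatives, 17 for Ugt1a genes, Ugt1a1 passed in 11 (log2 fold change 4.29 to 5.42), Ugt1a10 in 9 (1.49 to 1.90), Mgst3 in 9 (1.02 to 1.35) and Gclc and Nr3c1 in 11 each, and none of these 5 changed sign. Of the values of named genes under alternatives, 761 kept direction and side of the threshold, 39 newly passed, 37 no longer passed and 16 changed sign. By leaving out 1 library the ranges were −0.46 to 0.22 for Ugt3a1, −1.61 to 0.81 for Mgst2, −0.094 to 0.12 for Sult1c2 and −0.28 to 0.12 for Papss2. The 16 were Ugt1a6b with limma-voom (−0.53), with the block (−0.35) and without Control replicate 2 (−0.068), DKD replicate 2 (−0.063) or DKD replicate 3 (−0.24); Ugt3a1 without Control replicate 3 (0.22) or DKD replicate 3 (0.19); Mgst2 without Control replicate 2 (0.81) or DKD replicate 1 (0.23); Sult1c2 with upper quartile factors (0.015), the 1 CPM filter (0.0011), counts divided by 4 (0.00018) and without Control replicate 3 (0.060) or DKD replicate 3 (0.12); Papss2 without DKD replicate 3 (0.12); and Slc22a6 without Control replicate 3 (0.25). The cause was not tested. At this depth 3 counts are 0.0359 to 0.0448 CPM, so a member at 0 may be present below that.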
